A study of Mus musculus with 4 samples.

Results

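The genes described here are 10 genes that dendritic cells (DCs) turn on as they mature, Ccr7, Fscn1, Ccl22, Ccl17, Cd40, Cd83, Il4i1, Il12b and Relb with Cd40lg, the T cell partner of Cd40. They were taken by symbol from the gene table of the count matrices, which holds 32285 genes, and all 10 were found. They were followed in DC subsets, macrophages, B cells and T cells of mouse ascites, the fluid that gathers in the peritoneal cavity when an ovarian tumor spreads there. The 4 libraries of single cells came from female FVB mice 6 weeks after injection of Br-Luc cells, a mouse ovarian cancer line with the genotype p53-/-; brca1-/-; myc; Akt-myr that carries luciferase, and the fluid of 3 mice was pooled in each library. All mice received an siRNA with locked nucleic acid (LNA) bases in jetPEI nanoparticles by intraperitoneal injection, a control siRNA for siCont replicates 1 and 2 and an siRNA against Fxr1 for siFXR1-LNA replicates 1 and 2. The host mice were immunocompetent, so all immune cells were their own, while the tumor was a single cell line.

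Over all barcodes, whose mix of cells differed between the libraries, Fxr1 itself did not separate the groups in the direction of the labels. It had 57.3 and 36.6 UMIs per 1000000 UMIs (CPM) over all barcodes in the libraries labelled siCont, against 104 and 74.4 CPM where the label was siFXR1-LNA, so directions below are between labels. With hemoglobin genes left out it had 81.3 and 62.1 against 116 and 81.8 CPM, and siCont replicate 1 and siFXR1-LNA replicate 2 then lay close together. The paper reports Fxr1 as significantly lower with siFXR1-LNA within epithelial cells. The level of Fxr1 within a cell type was not taken here, so these values do not bear on that result. A UMI is a tag that counts 1 captured RNA molecule. The libraries held 78179267 to 113606837 UMIs, and 16874 to 54344 cells passed the filter. They stood apart in their mix of cells, since hemoglobin genes took 29.5% and 41.1% of UMIs in the siCont libraries, against 10.0% and 9.11% with siFXR1-LNA, and siFXR1-LNA replicate 1 held 40983 barcodes of a shallow cluster that no marker list named. Between 598 and 2882 cell barcodes were shared by each pair of libraries, and whether this is more than chance sharing was not tested. Because the libraries differed in their mix of cells, each comparison was also made without each library in turn, and cell numbers are given beside it. The mice were pooled, so n counts libraries, 2 per group, and intervals quoted for single values cover counting error only.

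When a DC meets a danger signal it stops sampling antigen, moves to a lymph node and primes T cells. CCR7 is the chemokine receptor that steers this migration, and fascin, the product of Fscn1, bundles actin in the long processes of the migrating cell. CCL22 and CCL17 are the ligands of CCR4, found on regulatory and helper T cells. CD40 receives the CD40 ligand of activated T cells, CD83 keeps MHC class II and CD86 at the surface, IL4I1 is a secreted amino acid oxidase that restrains T cells, and IL12B is the subunit that IL-12 and IL-23 share. RELB is the NF-kappaB subunit of the pathway downstream of CD40.

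The promoters of 4 members whose transcripts lay mostly in mature DC-like cells of the siCont libraries are shown so that the letters before their start sites can be compared. They are the bases upstream of the RefSeq start site (GRCm38.p6, plus strand) at chr5:142960105-142960354 for Fscn1, chr8:94745434-94745589 for Ccl22, chr8:94810203-94810452 for Ccl17 and chr11:44399813-44400062 for Il12b, with the Ccl22 stretch ended where the annotated gene begins. Capitals mark matches of GGGNNNNNCC, a loose NF-kappaB site, on either strand, or of TATAAA.
Fscn1: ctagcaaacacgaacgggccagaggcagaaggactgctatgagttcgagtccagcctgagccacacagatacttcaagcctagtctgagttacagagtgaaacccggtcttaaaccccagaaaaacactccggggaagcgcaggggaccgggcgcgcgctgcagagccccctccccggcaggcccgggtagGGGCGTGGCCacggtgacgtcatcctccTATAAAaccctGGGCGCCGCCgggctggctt
Ccl22: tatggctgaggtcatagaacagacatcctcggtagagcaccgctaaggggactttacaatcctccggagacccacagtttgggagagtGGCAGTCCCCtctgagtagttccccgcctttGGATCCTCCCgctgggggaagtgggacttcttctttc
Ccl17: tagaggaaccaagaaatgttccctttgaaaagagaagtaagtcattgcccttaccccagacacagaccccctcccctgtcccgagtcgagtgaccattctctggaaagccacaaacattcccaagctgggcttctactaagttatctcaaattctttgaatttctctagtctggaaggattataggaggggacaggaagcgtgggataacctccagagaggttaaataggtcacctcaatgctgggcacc
Il12b: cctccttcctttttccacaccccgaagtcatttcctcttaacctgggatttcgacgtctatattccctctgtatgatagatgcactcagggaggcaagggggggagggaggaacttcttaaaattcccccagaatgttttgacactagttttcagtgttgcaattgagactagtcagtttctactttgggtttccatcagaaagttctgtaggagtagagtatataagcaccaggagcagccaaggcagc
Fscn1 held the NF-kappaB letters at -59 and -20 from its start site on the plus strand and TATAAA at -31. Ccl22 held the NF-kappaB letters on the minus strand at -162 and -131 from its RefSeq start site, counted in the full window of 250 bases. The printed Ccl22 stretch has 156 bases and ends before that site, so these positions are not distances from its last base. Neither Ccl17 nor Il12b held a match, which says only that these letters were not in the window. In all 32851 mouse promoter windows of 250 bases, 45.8% held GGGNNNNNCC, 12.4% TATAAA and 6.75% the AP-1 letters TGANTCA, which no member window held. RefSeq promoters were on hand for 5 of the 10 members, and the window of Il4i1, the fifth, lies inside its annotated gene.

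The mature DC-like cells had the highest level of every member but Cd40lg. These cells were named from 16 markers that include no member, among them Cacnb3, Socs2 and Apol7c, after clustering on variable genes without the 10 members. There were 343 and 155 such cells in siCont replicates 1 and 2 and 54 and 80 in siFXR1-LNA replicates 1 and 2. The leading genes of the cluster then included 5 members, Fscn1, Ccl22, Il4i1, Ccl17 and Il12b. The summed level of the 16 markers was 6799 and 8422 CPM in the siCont libraries and 4770 and 6060 CPM in the siFXR1-LNA libraries. Levels in all other types were lower for every member but Cd40lg, as the plot of levels by cell type shows. Levels across cell types are given as a description, with no test, since the types were made from the same cells.

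**Figure D1:**
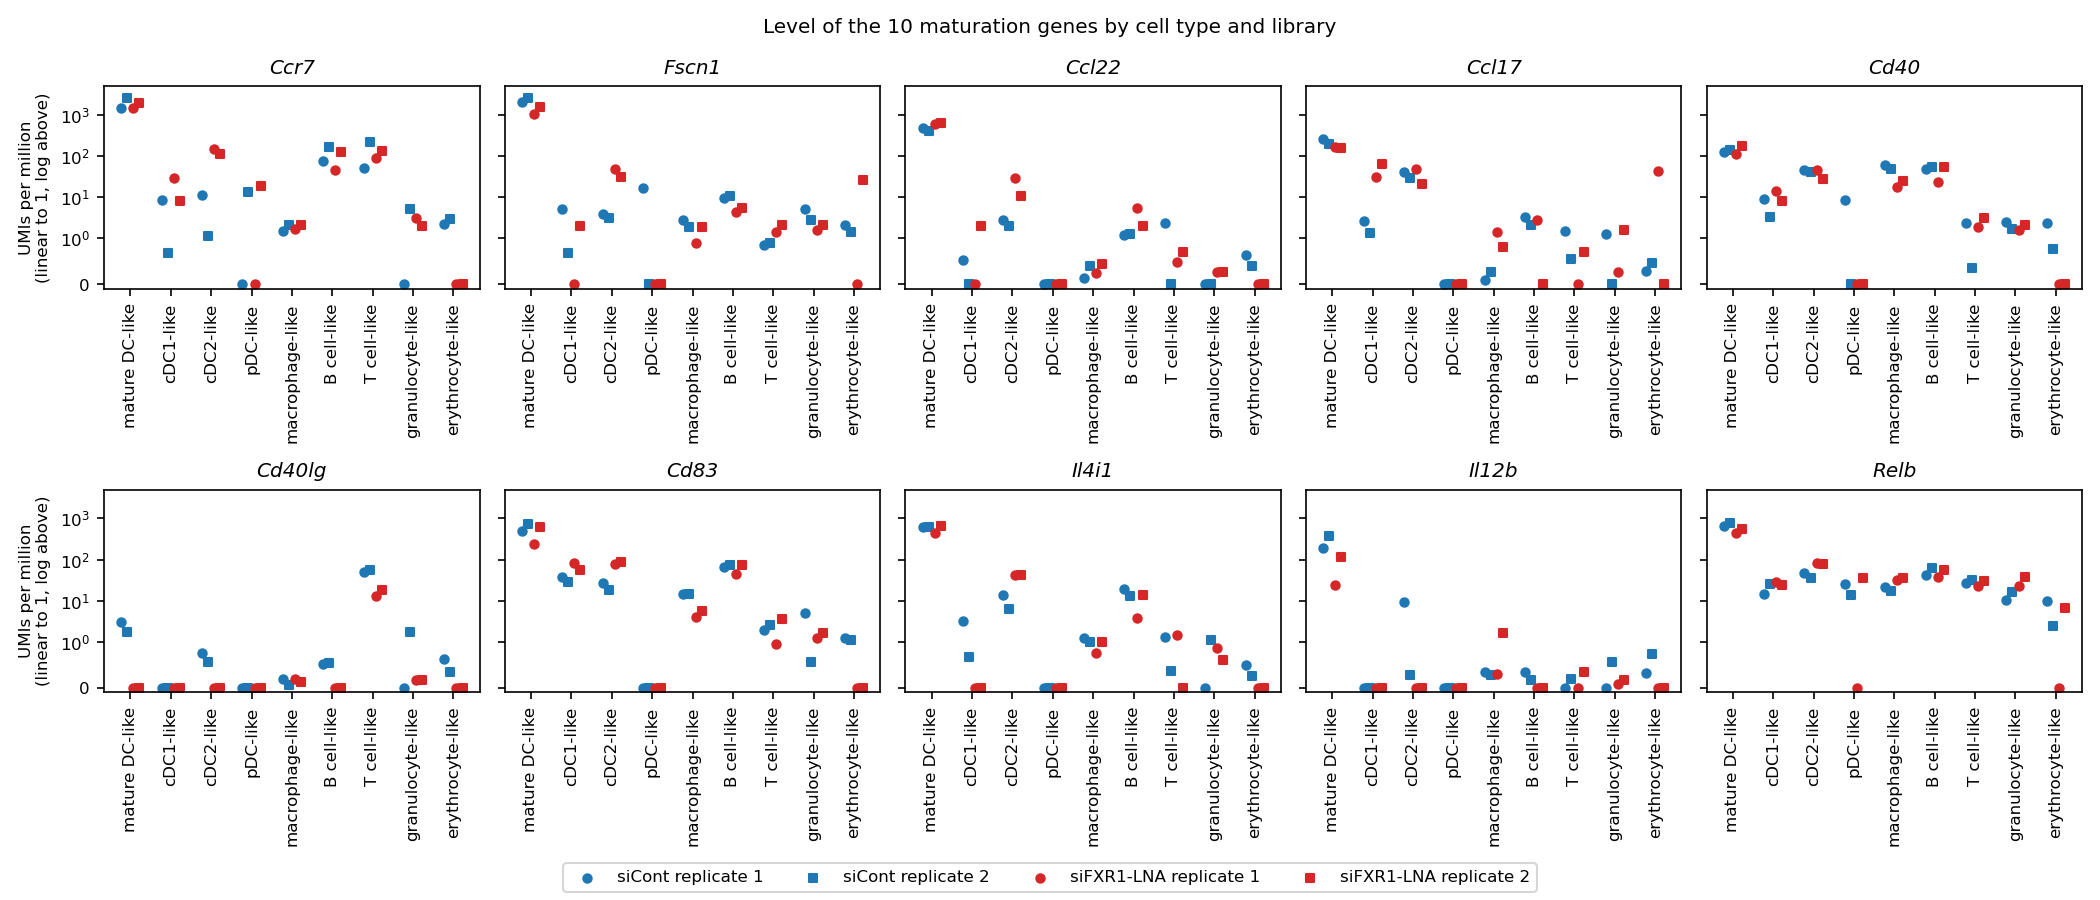
CPM of each of the 10 genes in 9 cell types, 1 point per library, on an axis that is linear up to 1 and logarithmic above. Except for Cd40lg, each gene is highest in mature DC-like cells in all 4 libraries, and Cd40lg is highest in T cells.

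The migration genes came first in this subset. Ccr7 (chr11:99144196-99155077, minus strand) had 1469 CPM (95% Poisson interval 1411 to 1528, 2438 UMIs) and 2607 CPM (2513 to 2703, 2936 UMIs) in the mature DC-like cells of siCont replicates 1 and 2. In those of siFXR1-LNA replicates 1 and 2 it had 1457 CPM (1312 to 1614, 368 UMIs) and 1950 CPM (1838 to 2066, 1146 UMIs). The groups overlapped. Fscn1 (chr5:142960343-142973185, plus strand) had 2088 and 2614 CPM in the siCont libraries and 1041 and 1548 CPM in the siFXR1-LNA libraries, from 3465, 2944, 263 and 910 UMIs. Both siFXR1-LNA libraries were below both siCont libraries for Fscn1. Outside mature DC-like cells, Ccr7 was found in B cells (76.6, 162, 46.3 and 122 CPM in siCont 1 and 2 and siFXR1-LNA 1 and 2), T cells (49.8, 221, 89.3 and 134 CPM) and NK cells of 3 libraries, all of which use this receptor to enter lymph nodes. Fscn1 was at 9.51, 10.7, 4.46 and 5.35 CPM in B cells and at 0.859 to 2.12 CPM in T cells, near the 2.14 and 1.46 CPM of the siCont erythrocytes, which do not make it and so show the level of free RNA.

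The CCR4 ligands were also highest in this subset. Ccl22 (chr8:94745590-94751699, plus strand) had 481 and 415 CPM in the mature DC-like cells of the siCont libraries and 602 and 631 CPM in those of the siFXR1-LNA libraries, from 798, 467, 152 and 371 UMIs. Here the siFXR1-LNA libraries were both above the siCont libraries. Ccl17 (chr8:94810453-94812036, plus strand) had 255 and 192 CPM in the siCont libraries and 162 and 153 CPM in the siFXR1-LNA libraries, from 424, 216, 41 and 90 UMIs, and its groups did not overlap in the other direction. The neighbouring genes of this chemokine pair thus lay in opposite order between the labels in the same cells. Ccl17 was also found in cDC2-like cells, at 40.2 and 30.1 CPM in siCont, against 48.7 and 21.2 CPM with siFXR1-LNA. Ccl22 was at 2.80 and 1.95 CPM there in siCont, against 28.8 and 10.6 CPM with siFXR1-LNA. In macrophages Ccl22 was at 0.146 to 0.440 CPM.

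Of the costimulatory genes, Cd83 (chr13:43784775-43803132, plus strand) had 480 and 713 CPM in mature DC-like cells of siCont replicates 1 and 2 and 238 and 599 CPM in those of siFXR1-LNA replicates 1 and 2. Its lowest library was siFXR1-LNA replicate 1, with 60 UMIs. Cd40 (chr2:165055627-165072948, plus strand) had 128 and 144 CPM against 115 and 174 CPM, and the groups overlapped. Cd40 was also found outside mature DC-like cells, with 59.8, 48.8, 17.9 and 24.4 CPM in macrophages, 47.4, 53.7, 23.4 and 55.5 CPM in B cells and 45.9, 41.2, 45.4 and 27.4 CPM in cDC2-like cells. Cd83 was at 66.9, 72.9, 45.7 and 74.2 CPM in B cells, where it marks activated and light zone cells, and at 37.1, 29.1, 80.2 and 55.2 CPM in cDC1-like cells. Cd40lg (chrX:57212143-57224042, plus strand) was at 49.6 and 55.2 CPM in the T cells of the siCont libraries and 13.0 and 18.4 CPM in those of the siFXR1-LNA libraries. In mature DC-like cells it had 5 and 2 UMIs in the siCont libraries and 0 UMIs in both siFXR1-LNA libraries, which by the exact interval allows up to 14.6 and 6.28 CPM.

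The remaining members were Il4i1, Il12b and Relb. Il4i1 (chr7:44816387-44840809, plus strand) had 626 and 609 CPM in mature DC-like cells of the siCont libraries and 447 and 664 CPM in those of the siFXR1-LNA libraries, with overlap. Il12b (chr11:44400063-44414033, plus strand) had 186 and 364 CPM from 308 and 410 UMIs in the siCont libraries. It had 23.8 CPM (8.72 to 51.7) from 6 UMIs and 114 CPM (88.3 to 145) from 67 UMIs in the siFXR1-LNA libraries, both below the siCont values. Relb (chr7:19606217-19629438, minus strand) had 637 and 772 CPM against 435 and 550 CPM, again without overlap. Relb was also found in lymphoid and other myeloid cells, at 42.8, 61.2, 38.5 and 56.2 CPM in B cells, 21.7, 16.9, 32.3 and 36.4 CPM in macrophages and 10.2, 16.4, 23.2 and 36.9 CPM in granulocytes. In siCont erythrocytes Relb had 9.63 and 2.49 CPM.

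**Figure D2:**
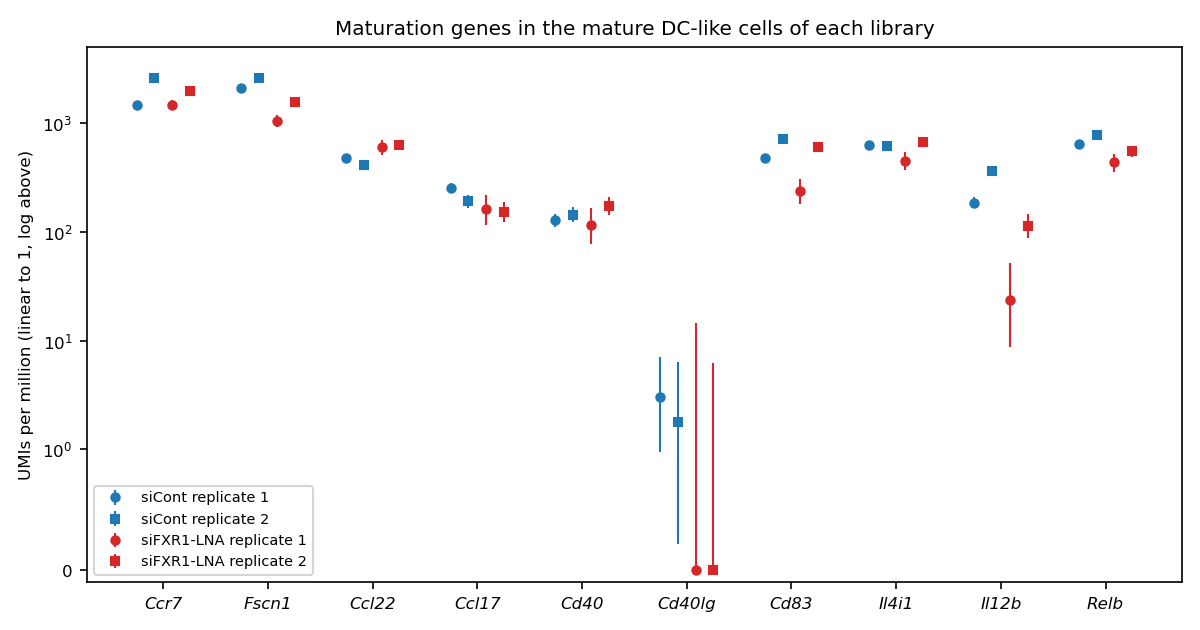
CPM of the 10 genes in mature DC-like cells, 1 point per library, with exact 95% Poisson intervals as bars, which cover counting error only. Fscn1, Ccl17, Il12b and Relb lie lower in both siFXR1-LNA libraries, Ccl22 lies higher in both, and Ccr7, Cd40, Cd83 and Il4i1 overlap between the labels.

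None of the 9 members tested in mature DC-like cells passed the threshold between the labels. The test was the quasi-likelihood test of edgeR on UMIs summed per library, adjusted over all 7595 genes tested by the Benjamini-Hochberg method with a threshold of 0.05, which called 130 genes or 1.71%. At an unadjusted p under 0.05 there were 4 members and 1149 genes, and DESeq2 called 1 member, Fscn1. The log2 fold change from siCont to siFXR1-LNA was -0.96 ± 0.21 (SE) for Fscn1 with an adjusted p of 0.0570, and -1.92 ± 0.51 for Il12b with an adjusted p of 0.104. Relb had -0.61 ± 0.22 (adjusted p = 0.212), Ccl17 -0.62 ± 0.26 (adjusted p = 0.304) and Ccl22 0.36 ± 0.20 (adjusted p = 0.470). Ccr7 had -0.36 ± 0.26, Cd83 -0.57 ± 0.37, Il4i1 -0.24 ± 0.23 and Cd40 0.02 ± 0.28. The median over the 9 members was -0.57, beside -0.02 over all genes tested.

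Some of these values depended on the setting. Keeping mixed or set-aside sub-clusters left the sums of mature DC-like cells unchanged, so among the alternatives these could only repeat the main fit. Fscn1 stayed between -0.69 and -1.30 under 14 alternatives and passed the threshold in 10 of them. It was -1.10 without siCont replicate 1, -0.77 without siCont replicate 2 and -1.30 without siFXR1-LNA replicate 2. Il12b stayed below 0 in all 14 and passed in 6. It was -2.30, -1.33 and -3.64 without the same libraries. Without siCont replicate 1, Ccr7 was -0.70 and Cd83 -0.82. Without siFXR1-LNA replicate 2, Cd83 was -1.45, and the siFXR1-LNA label then rested on 54 cells. A fit without a library left 1 library in that group, and such fits are among those counted as passing. The share of all genes called also rose in other settings, to 5.5% with the replicate block, beside 1.71% in the main fit. Markers of other cells differed too, since the 5 granulocyte markers summed to 62.1 and 370 CPM in the mature DC-like cells of the siCont libraries and to 1291 and 1125 CPM in those of the siFXR1-LNA libraries. The 5 erythrocyte markers summed to 97717 and 70771 CPM against 44964 and 31332 CPM. The part of either in the values of the members was not tested, apart from leaving out hemoglobin genes.

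The wider maturation program in the same cells was read from 6 lists. Of the 16 mature DC markers, 4 were lower with the siFXR1-LNA label and none was higher, with a median log2 fold change of -0.72 beside -0.02 over all genes. H2-M2, a nonclassical MHC class I gene, was at 123 and 131 CPM in the siCont libraries and 15.8 and 49.3 CPM in the siFXR1-LNA libraries, and fell by 1.88 on the log2 scale (adjusted p = 0.0463, edgeR). Laptm4b, a lysosomal membrane protein, had 231 and 368 against 79.2 and 117 CPM, and Nudt17 and Zmynd15 were the other two called lower, by 1.26 and 1.22. Of 11 costimulation and checkpoint genes, 1 was higher. That gene was Tnfrsf9, the receptor 4-1BB, with 34.3 and 23.1 CPM in the siCont libraries and 99.0 and 105 CPM in the siFXR1-LNA libraries, a log2 fold change of 1.71 ± 0.31 (adjusted p = 0.0281). None of the 16 genes of NF-kappaB and CD40 signalling, 3 cytokine genes, 4 chemokine partners and 9 antigen presentation genes tested passed the threshold by edgeR or DESeq2, with list medians of -0.27, 0.27, -0.52 and -0.41. At an unadjusted p under 0.05 there were 2, 2, 3 and 2 of them, beside 1149 of the 7595 genes tested. The mature DC markers were also used to name these cells, so their change is not apart from how the cells were chosen.

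Members were found together in single cells of this subset. After each cell was thinned to 1000 UMIs, so that depth was equal, a Ccr7 UMI was seen in 62.9% and 80.4% of mature DC-like cells of the siCont libraries and 67.9% and 70.9% of those of the siFXR1-LNA libraries (91.0%, 95.5%, 94.4% and 96.2% before thinning). Fscn1 was seen in 73.7% and 76.5% against 62.3% and 62.0%. Il4i1 was seen in 41.8% of the cells of each siCont library and in 22.6% and 40.5% of those of the siFXR1-LNA libraries. At least 4 members were seen in 37.1% and 48.4% of the siCont cells and in 30.2% and 35.4% of the siFXR1-LNA cells. Of the 261 thinned cells with 4 or more members in the whole series, 245 or 93.9% were mature DC-like, 7 lay in sub-clusters with mixed markers and 5 were cDC2-like. Among mature DC-like cells, those with a Ccr7 UMI (430 cells) showed Fscn1 in 74.9% and Il12b in 9.77%, and those without (197 cells) in 65.5% and 4.06%. Il4i1 went the other way, in 37.9% of the cells with Ccr7 and 44.7% of those without. These shares pool the libraries and are given with no test.

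**Figure D3:**
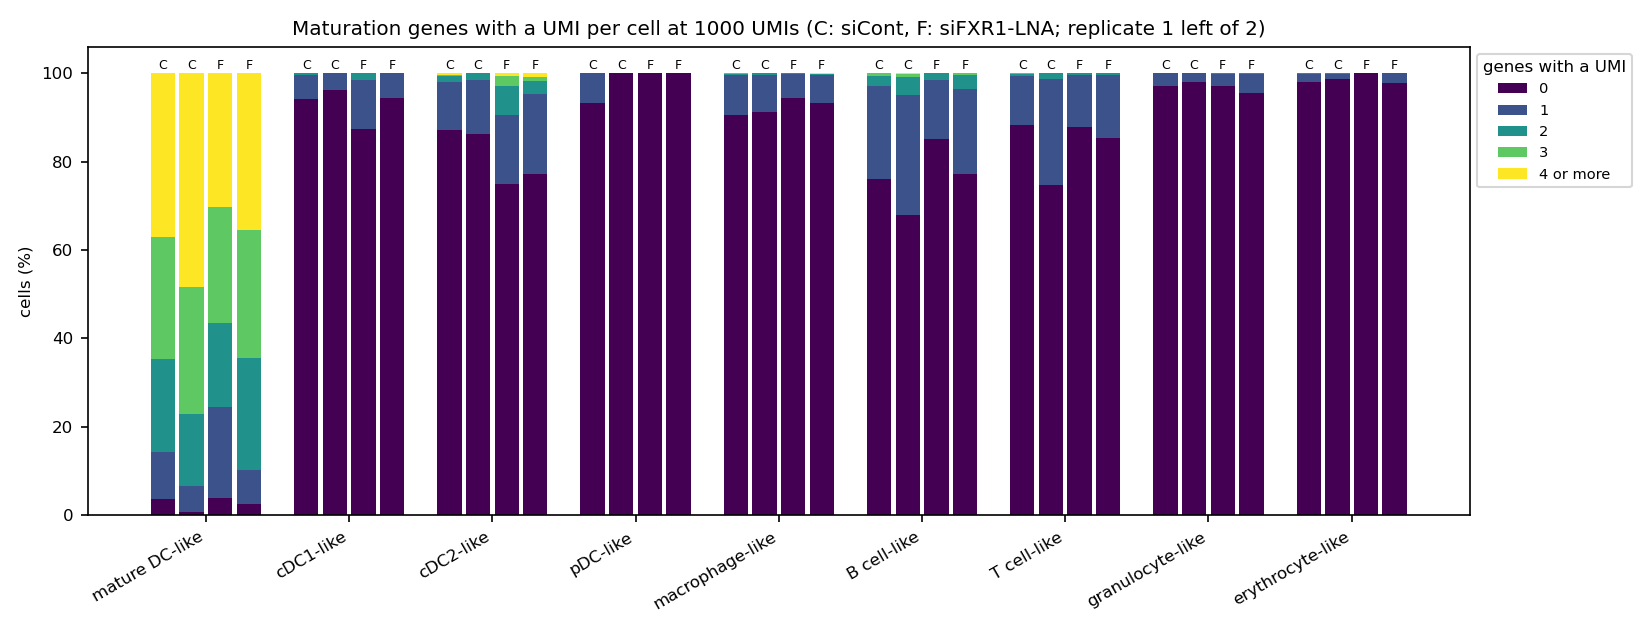
Percent of cells by the number of the 10 genes with at least 1 UMI, per cell type and library, in cells thinned to 1000 UMIs. Mature DC-like cells average 3.11 and 3.55 members in the siCont libraries, against 2.72 and 3.03 with siFXR1-LNA, and almost all cells with 4 or more members are of this type.

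How much of each transcript a library holds depends on the number of cells as well as on the level in them. Mature DC-like cells were 0.945% and 0.617% of kept cells in the siCont libraries, against 0.0994% and 0.474% with siFXR1-LNA, with an exact two-sided permutation p of 0.333, the smallest that 2 against 2 libraries allow. Outside erythrocytes and unnamed clusters they were 2.69% and 1.76% against 0.487% and 0.743%. Within DCs their part was 22.7%, 20.3%, 17.4% and 20.2% in siCont 1 and 2 and siFXR1-LNA 1 and 2, and siCont replicate 2 and siFXR1-LNA replicate 2 lay close together. They held 86.3%, 89.8%, 69.1% and 87.9% of all Ccl22 UMIs of siCont 1 and 2 and siFXR1-LNA 1 and 2, and 85.1%, 91.0%, 52.5% and 79.5% of the Fscn1 UMIs. For Il4i1 the parts were 72.7%, 80.6%, 47.9% and 71.6%, and for Ccr7, which lymphocytes share, 61.0%, 49.3%, 37.8% and 54.3%. Of Relb they held 33.3% and 38.0% in the siCont libraries, against 6.03% and 12.9% with siFXR1-LNA. Of Cd40 they held 4.25% to 10.2%, while macrophages held 45.5% to 68.2%.

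**Figure D4:**
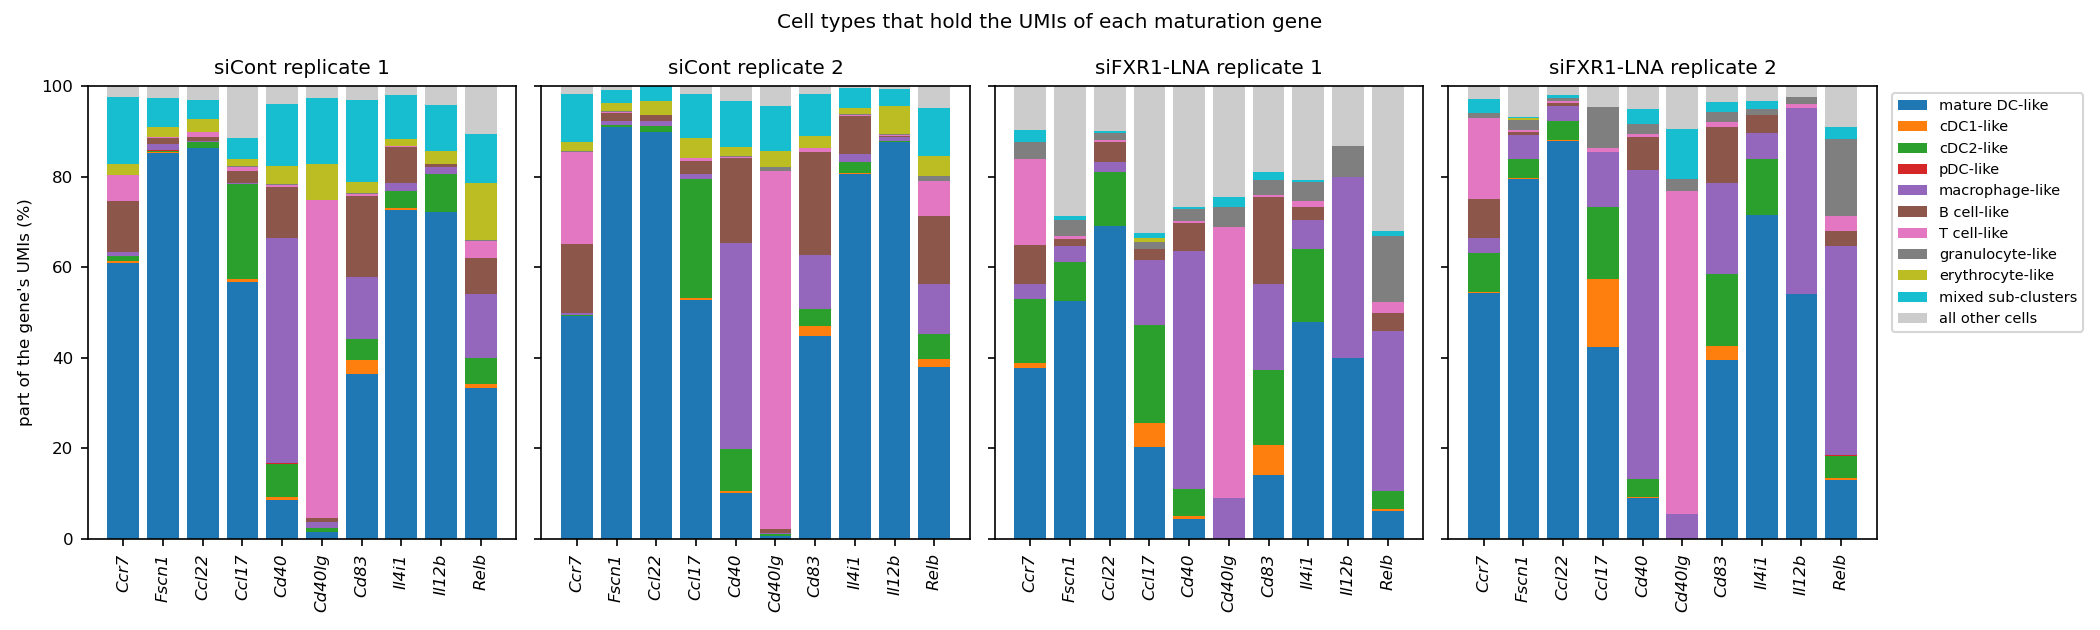
Stacked bars of the percent of each gene's UMIs that lies in each cell type, 1 bar per library. Mature DC-like cells hold most of Ccl22 and Fscn1 in every library, macrophages hold the largest part of Cd40, and T cells hold 60.0% to 79.2% of Cd40lg.

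In cDC2-like cells, the conventional DCs that present antigen to helper T cells, 5 of the 8 members tested were higher with the siFXR1-LNA label and none was lower, where 3.59% of 10544 genes were called and 1.75% were called higher. There were 793 and 436 such cells in the siCont libraries, against 180 and 242 with siFXR1-LNA. Ccr7 was at 11.5 and 1.11 CPM (45 and 4 UMIs) in the siCont libraries and 152 and 113 CPM (137 and 181 UMIs) in the siFXR1-LNA libraries, higher by 4.30 ± 0.63 on the log2 scale (edgeR, adjusted p = 0.0169). Fscn1 was at 3.82 and 3.06 against 47.6 and 30.6 CPM, a change of 3.40 ± 0.35 (adjusted p = 0.00606). In these sums both migration genes thus lay far above their siCont values in both siFXR1-LNA libraries. They stayed well below their levels in mature DC-like cells. Before thinning, a Ccr7 UMI was seen in 1.64% and 0.917% of siCont cells and 16.1% and 8.68% of siFXR1-LNA cells. For Fscn1 the shares were 1.26% and 1.83% against 6.11% and 4.13%. After thinning they were 0.631% and 0% against 7.78% and 5.39% for Ccr7. For Fscn1 they were then 0.758% and 0.229% against 1.11% and 2.90%. Each gene was thus seen in a minority of these cells. Cd83 was at 26.2 and 18.7 against 78.6 and 88.6 CPM (1.85 ± 0.22, adjusted p = 0.00928). Il4i1 was at 13.5 and 6.13 against 42.1 and 41.8 CPM (2.03 ± 0.36, adjusted p = 0.0304). Ccl22 was at 2.80 and 1.95 against 28.8 and 10.6 CPM, from 11, 7, 26 and 17 UMIs (2.90 ± 0.60, adjusted p = 0.0483).

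The other three members tested did not pass in cDC2-like cells. Relb was at 46.4 and 35.9 CPM in the siCont libraries and 80.8 and 78.6 CPM in the siFXR1-LNA libraries (0.90 ± 0.20, adjusted p = 0.0580, edgeR). Without siCont replicate 1, a fit with 1 siCont library, Relb was 1.07. Ccl17 was at -0.14 ± 0.37 and Cd40 at -0.35 ± 0.26 on the log2 scale, and both overlapped between the labels. Il12b had 36 UMIs in siCont replicate 1, 1 in siCont replicate 2 and 0 in both siFXR1-LNA libraries and was not tested.

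The calls in cDC2-like cells rested on few libraries and on how these cells were drawn. Without siFXR1-LNA replicate 1, only Fscn1 of the 5 stayed past the threshold, and the adjusted p was 0.128 for Ccr7, 0.318 for Ccl22, 0.0512 for Cd83 and 0.167 for Il4i1. Without siFXR1-LNA replicate 2 it was 0.0696 for Ccr7, 0.0552 for Cd83 and 0.111 for Il4i1. With hemoglobin genes left out, Ccl22 had 0.0534. The cells came from 2 sub-clusters, and one of them held 500 and 291 siCont cells but 0 and 4 siFXR1-LNA cells. In the other sub-cluster alone, with 293, 145, 180 and 238 cells, Ccr7 was at 3.15 and 3.84 against 152 and 116 CPM (5.18, adjusted p = 0.000464), and Fscn1 (2.95, adjusted p = 0.0153) and Cd83 (1.50, adjusted p = 0.0278) passed as well, where 1.37% of genes were called. Ccl22 (2.55, adjusted p = 0.120), Il4i1 (0.95, adjusted p = 0.371) and Relb (0.38, adjusted p = 0.588) did not.

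Markers moved with the label in the cDC2-like cells. The 6 cDC2 markers summed to 2274 and 2533 CPM in the siCont libraries and 745 and 1328 CPM in the siFXR1-LNA libraries. Among them Cd209a, a lectin that defines the subset, had 958 and 982 against 54.3 and 249 CPM. Mgl2 was also lower in both siFXR1-LNA libraries, and Clec10a overlapped between the labels. Flt3, Htr7 and Clec4a4 went the other way and were higher in both siFXR1-LNA libraries, so the markers did not fall together. The 16 mature DC markers summed to 331 and 228 against 630 and 437 CPM, and the 5 granulocyte markers to 134 and 939 against 1596 and 1410 CPM. Whether part of the change of the members came with these differences was not tested. The cDC2 class is thus a name from markers that were not equally raised in both labels, and in 3 other clusterings it held 0 to 10 siFXR1-LNA cells, so that no cDC2 value could be had there. Of the maturation lists, 3 of 10 costimulation genes, 4 of 16 genes of NF-kappaB and CD40 signalling, 2 of 5 chemokine partners and 2 of 11 mature DC markers were higher in cDC2-like cells, and none was lower. Tnfrsf9 (4.03), the chemokine Ccl5 (3.28), Ramp3 (2.63) and Tnfaip3 and Nfkbia (both 2.16), feedback inhibitors of NF-kappaB, had the largest log2 fold changes.

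In cDC1-like cells, which present antigen to cytotoxic T cells, only 3 members had enough UMIs to test. Ccl17 was at 2.65 and 1.35 CPM in the siCont libraries and 31.5 and 63.1 CPM in the siFXR1-LNA libraries, from 5, 2, 11 and 32 UMIs. It was higher with the siFXR1-LNA label by 4.47 ± 0.56 on the log2 scale (adjusted p = 0.0219, edgeR), where 0.462% of 8000 genes were called. Before thinning, 1.17% and 1.26% of siCont cells and 10.9% and 11.1% of siFXR1-LNA cells had a Ccl17 UMI. After thinning to 1000 UMIs these were 1 of 342 and 0 of 159 siCont cells and 2 of 64 and 1 of 54 siFXR1-LNA cells, too few to compare. The siFXR1-LNA label held 64 and 54 cells, and without replicate 2 of it the adjusted p was 0.228. Cd83 (0.98 ± 0.29, adjusted p = 0.250) and Relb (0.37 ± 0.41, adjusted p = 0.784) did not pass. No listed maturation gene passed in cDC1-like cells by edgeR, while DESeq2 called 1 of 4 costimulation genes. At an unadjusted p under 0.05 there were 7 of 16 genes of NF-kappaB and CD40 signalling, 3 of 9 mature DC markers, 2 of 4 chemokine partners and 1 costimulation gene. Over all 8000 genes tested there were 902. In plasmacytoid DC-like cells, 12 to 30 per library, no member had enough UMIs to test.

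In macrophages, 2 of the 7 members tested were lower and 1 was higher with the siFXR1-LNA label, where 15.9% of 13971 genes were called, 8.5% higher and 7.37% lower. A share of 3 in 7 stands beside that high background. Cd83 was at 14.6 and 14.4 CPM in the siCont libraries and 4.05 and 5.66 CPM in the siFXR1-LNA libraries (-1.40 ± 0.22, adjusted p = 0.0229, edgeR). Cd40 moved from the values given above by -1.17 ± 0.19 (adjusted p = 0.0229), and Relb rose by 1.01 ± 0.16 (adjusted p = 0.0215). These are changes of the summed macrophages, whose sub-clusters differed between the labels. Ccl17 had 2 and 4 UMIs against 29 and 26 UMIs (2.83 ± 0.70, adjusted p = 0.0559). Ccl17 turned in direction to -0.36, -0.45 and -0.48 when later rounds were clustered at a resolution of 0.1, when mixed sub-clusters were kept and when set-aside sub-clusters were kept, with adjusted p of 0.829, 0.569 and 0.726. Ccr7 (0.26 ± 0.36), Fscn1 (-0.53 ± 0.47) and Il4i1 (-0.19 ± 0.40) were at 0.751 to 2.73 CPM in every library, and none passed.

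Macrophages of the labels fell into different sub-clusters. One held 0 and 1 siCont cells and 2097 and 1913 siFXR1-LNA cells, with 248 and 315 Cd40 UMIs in the latter. Another held 1042 and 713 siCont cells and 0 and 1 siFXR1-LNA cells, with Cd40 at 54.2 and 71.4 CPM in the siCont libraries. In the sub-cluster that all libraries filled best, with 154, 722, 491 and 899 cells, Cd40 was at 40.5, 33.7, 29.1 and 46.3 CPM, and the log2 fold change was 0.08 (adjusted p = 0.968) for Cd40, 0.75 (adjusted p = 0.768) for Cd83 and 0.71 (adjusted p = 0.530) for Relb, where 0.0349% of genes were called. In a further sub-cluster with 117, 44, 630 and 417 cells, Cd83 was lower by -2.18 (adjusted p = 0.0470, 7, 7, 15 and 10 UMIs), Cd40 had -1.39 (adjusted p = 0.0654) and Relb 0.76 (adjusted p = 0.333), where 8.84% were called. Over all macrophages, the adjusted p of Cd40 was 0.0505 without siCont replicate 1 and 0.0820 without siFXR1-LNA replicate 1. That of Cd83 was 0.0557 without siCont replicate 2 and 0.0831 without siFXR1-LNA replicate 1, and that of Relb was 0.0702 and 0.0815 without siFXR1-LNA replicate 1 or 2. Macrophage markers summed to 29254 and 23466 CPM in the siCont libraries and 12009 and 19329 CPM in the siFXR1-LNA libraries, and granulocyte markers to 113 and 453 against 1139 and 1323 CPM, and the part of these differences in the members' values was not tested.

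Other maturation genes in macrophages moved in both directions. Il12a, which pairs with IL12B, was at 2 and 3 UMIs in the siCont libraries and 47 and 61 UMIs in the siFXR1-LNA libraries (4.02 ± 0.53 on the log2 scale, adjusted p = 0.0166, edgeR). Il12b had 7, 4, 6 and 51 UMIs there and was not tested. Tnfaip3 (3.96), Ccl5 (3.76), Ccrl2 (3.20) and Tnfrsf9 (2.90) were the other rises of largest size. H2-Eb1, H2-Ab1 and H2-DMa of the MHC class II pathway fell by 1.99, 1.65 and 1.32, 3 of 9 antigen presentation genes tested, with Anxa3 and Il15 lower by 1.16 and 0.76 in the other lists. Over the lists, 4 of 9 costimulation genes and 2 of 4 chemokine partners were higher, and 5 of 16 genes of NF-kappaB and CD40 signalling were higher and 1 lower.

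**Figure D5:**
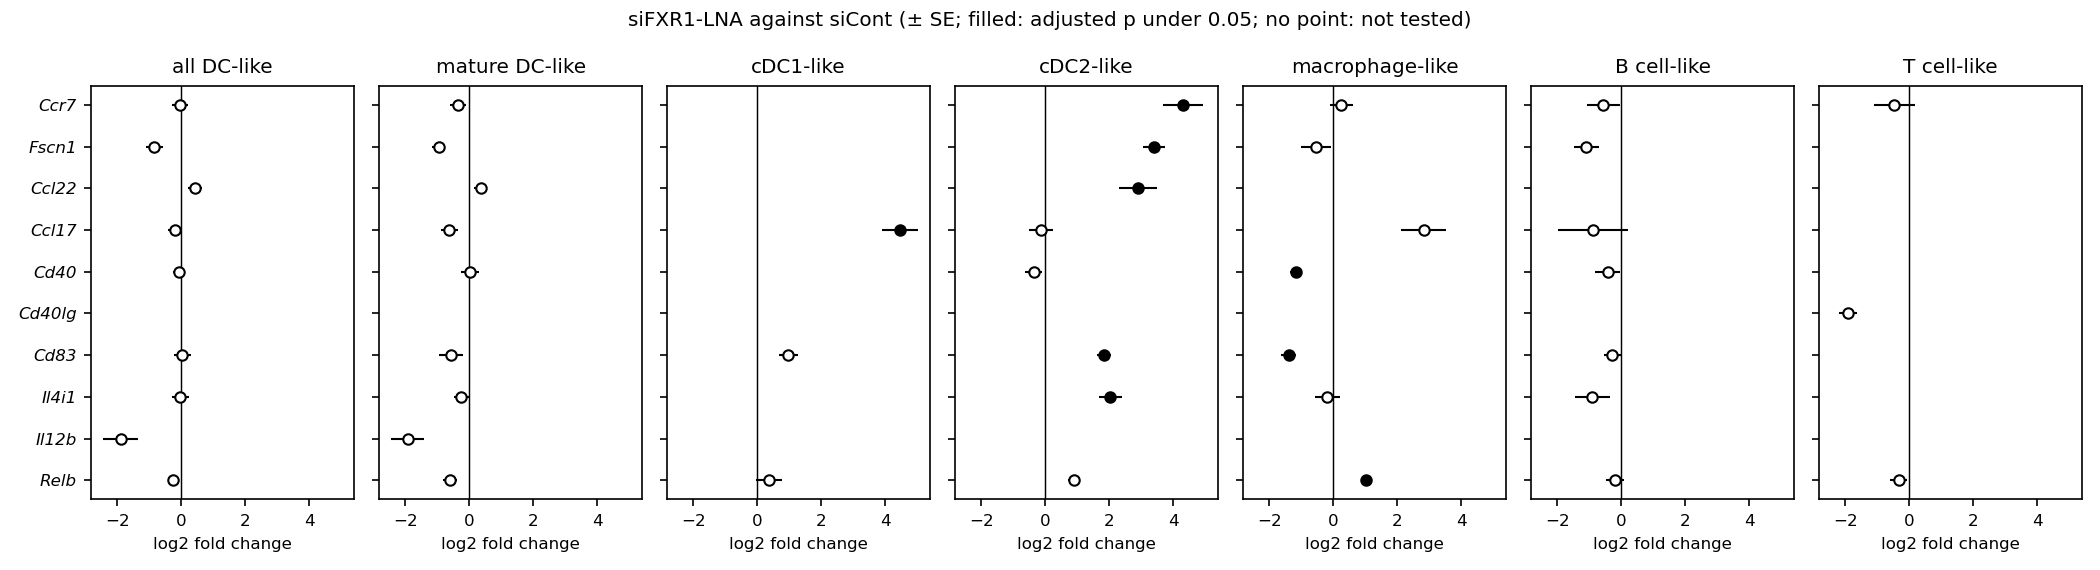
Log2 fold change from siCont to siFXR1-LNA of each gene tested, with its standard error, in 7 cell types. Filled points pass the threshold of 0.05, which are 5 genes in cDC2-like cells, Ccl17 in cDC1-like cells and Cd40, Cd83 and Relb in macrophages.

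In B cells none of the 7 members tested passed, where 0.286% of 11881 genes were called by edgeR, and DESeq2 called none either. At an unadjusted p under 0.05 there was 1 member, beside 1769 of the 11881 genes. It was Fscn1, at -1.09 ± 0.40 (adjusted p = 0.291). Cd40, the receptor through which T cells help B cells, had -0.43 ± 0.38, Cd83 -0.28 ± 0.27 and Relb -0.19 ± 0.29, and the values of each overlapped between the labels. Ccr7 had -0.56 ± 0.52, Ccl17 -0.87 ± 1.09 and Il4i1 -0.90 ± 0.56. One B cell sub-cluster held 2 cells of each siCont library and 804 and 527 siFXR1-LNA cells.

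In T cells none of the 3 members tested passed by edgeR, where 0.344% of 11933 genes were called, while 1 had an unadjusted p under 0.05 and DESeq2 called 1, in both cases Cd40lg. Cd40lg came from 231 and 304 UMIs in the siCont libraries and 27 and 52 UMIs in the siFXR1-LNA libraries, with a change of -1.91 ± 0.28 on the log2 scale (edgeR, adjusted p = 0.0609). It passed in 5 of 15 alternatives, among them the fits without siCont replicate 1 (-1.99) or replicate 2 (-1.82), which left 1 siCont library. It was -0.59 (adjusted p = 0.605) when the members could enter the clustering. There a sub-cluster of 2117 cells with Cd40lg among its leading genes raised erythrocyte markers and was taken out as mixed. That clustering held 911 and 1184 siCont T cells, against 2187 and 1990 in the main one, and 871 and 1154 siFXR1-LNA T cells, against 1025 and 1159. The part of this in the value was not tested. In the T cell sub-cluster of the main clustering with 278, 278, 155 and 204 cells, Cd40lg was at 45.7 and 66.5 against 11.8 and 32.3 CPM (-1.50, adjusted p = 0.266), where 1.04% of genes were called. T cells of the 2 labels lay mostly in different sub-clusters, 1273 and 751 siCont against 1 and 13 siFXR1-LNA cells in the largest, and the part of this split in the value of Cd40lg was tested only by that sub-cluster. Ccr7 in T cells differed widely between the siCont replicates (49.8 and 221 CPM), and a sub-cluster with 198 and 801 siCont cells held it at 264 and 454 CPM. The change of Ccr7 was -0.47 ± 0.63 over all T cells and 0.99 without siCont replicate 2 (adjusted p = 0.358). Relb had -0.33 ± 0.27 in T cells, and of 9 costimulation genes and 16 genes of NF-kappaB and CD40 signalling tested in either lymphocyte none was called by edgeR or DESeq2. In B cells 3 of each list had an unadjusted p under 0.05, and in T cells 1 and 3. Over all genes tested there were 1769 in B cells and 1392 in T cells.

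Over all DCs together, none of 9 members passed, where 2.84% of 11709 genes were called by edgeR. At an unadjusted p under 0.05 there were 2 members, beside 2155 of the 11709 genes, and DESeq2 called 1 member, Fscn1. Fscn1 was at 460 and 472 CPM in the siCont libraries and 198 and 342 CPM in the siFXR1-LNA libraries (-0.83 ± 0.25, adjusted p = 0.157), and Il12b at 45.3 and 65.6 against 3.88 and 23.9 CPM (-1.89 ± 0.54, adjusted p = 0.140). Without siCont replicate 1 or replicate 2, which left 1 siCont library, Fscn1 was -0.87 and -0.81 and Il12b -2.14 and -1.59. Fscn1 passed in 5 of 14 alternatives, and was 0.01 (adjusted p = 0.994) with at least 500 genes per cell, -0.01 with later rounds at a resolution of 0.1 and -0.02 when the members could enter the clustering. In these last clusterings the DCs held only 0 to 10 cDC2-like cells per siFXR1-LNA library, so their mix of subsets was another. Keeping set-aside sub-clusters left the sum of all DCs unchanged, so that alternative could only repeat the main fit. Il12b stayed below 0 in all 14 and passed in 4, with adjusted p up to 0.464. Ccl22 had 0.43 ± 0.21, Relb -0.24 ± 0.18, Ccl17 -0.20 ± 0.23, Cd40 -0.08 ± 0.16, Cd83 0.04 ± 0.27, Ccr7 -0.03 ± 0.24 and Il4i1 -0.03 ± 0.26, and of these all but Ccl22 changed sign under 1 or more alternatives. The median over the members was -0.08. Nfkbia (1.28), Tnfaip3 (1.21) and Tnfrsf9 (2.14) were higher and Nudt17, Zmynd15, Serpinb6b, Il15 and Xcr1 lower among the listed genes.

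The change between the labels was also compared between cell types, with an edgeR interaction. It differed between all DCs and macrophages for 5 of the 9 members tested, Il12b, Cd83, Relb, Cd40 and Ccl17, where 7.9% of genes were called. The difference of Ccl17 was -2.99 (adjusted p = 0.00284), and 0.37 (adjusted p = 0.765) with set-aside sub-clusters kept. Between B cells and macrophages it differed for 2, Cd83 and Relb, where 5.09% were called.

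The genes whose level followed a member most closely were found over 63 sums of a cell type in a library, by Pearson r of log2(CPM + 1), and the points share libraries and depth. Fscn1 ran with Il4i1, Ccl22 and Lad1 (all r = 0.87), and Ccl22 with Lad1 (0.93), Scn4b (0.93) and Dkk2 (0.92). Il4i1 ran with Ccl22 (0.90), Fscn1 (0.87) and Mreg (0.86), and Il12b with Gm10432 (0.91), Lad1 (0.91) and Utf1 (0.90). Cd40 and Cd83 were each other's closest gene at 0.86, followed by Nod2 (0.80) and Ifi30 (0.79) for Cd40 and by Cacna1s (0.84) and Tmem120b (0.80) for Cd83. Cd40lg stood apart with Izumo1r (0.95), Trbv3 (0.94) and Trac (0.93), a set of T cell genes. Ccr7 was closest to Gm33843 (0.84), Nr4a3 (0.79) and Il2ra (0.78), Ccl17 to Tox3 (0.85), Lpar3 (0.81) and Gm17276 (0.80), and Relb to Nfkbib (0.80), Traf1 (0.80) and Cd1d1 (0.79). The order depended on the constant added, since with 5 CPM in place of 1 Nfkbib, Traf1 and Cd1d1 ranked 13, 5 and 11 for Relb, Lad1 ranked 8 for Fscn1, and 6 other genes named here fell to rank 4 or 5.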

How the data were processed

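Cells of ascites were profiled by 10x 3' single-cell RNA sequencing in 4 libraries, 2 per group, with 3 mice pooled in each. The authors deposited raw UMI counts per gene and barcode, made per the labels with Cell Ranger 7.0.0 on mm10 and not normalized. Gene positions are from GENCODE and promoters from RefSeq, both on GRCm38.

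With the limits of the study's methods, barcodes were kept if they had 100 to 4800 genes detected and no more than 15% of their UMIs from mitochondria. The cells are not the study's set. The paper reports far fewer cells after filtering and left out a siFXR1-LNA replicate with fewer reads. Here all 4 libraries were used, with 16874 to 54344 cells kept in each. In Seurat 5.3.0 (R 4.3.3), 2000 variable genes without the members gave 50 principal components and clusters at a resolution of 0.1, without integration. Macrophages, T cells, B cells and DCs were clustered again at 0.3. A marker was called raised in a cluster with 2 times its average elsewhere and a UMI in 5% of cells or more, and a name needed 3 raised markers and a fraction of 0.5 of its list, and for erythrocytes a median of 30% hemoglobin UMIs. These naming rules were set after the clusters had been seen. Sub-clusters with markers of another lineage were taken out as mixed, and those whose leading genes held more markers of another class were set aside. Names mean "like" that type. A difference from the study may come from these names. Scrublet in scanpy 1.11.5 marked 1 cell in all and so did not work, and no doublets were removed in the main results.

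UMI counts were summed per library and type and given as CPM with exact 95% Poisson intervals. Sums with at least 10 cells in every library were tested in edgeR 4.0.16 (TMM, filterByExpr, quasi-likelihood test, Benjamini-Hochberg adjustment over all genes tested, threshold 0.05). Differences of a change between types were tested with an interaction term and a block for each library. Shares of cells were taken after thinning to 1000 UMIs. DESeq2 1.42.0 and other filters, clusterings and left-out libraries were alternatives. Leaving out hemoglobin genes, keeping set-aside sub-clusters and testing single sub-clusters were chosen after seeing the data. The fits were tested on simulated data. Libraries, each a pool of mice, are the replicates, so p-values measure the spread between pools.

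The members and gene lists were chosen with earlier results of these data known. The text names the 10 members in every type tested, at most 5 listed pathway genes per type and direction past the threshold, the 3 genes most like each member and Fxr1. Ccl19 and Ccl21a have several identifiers each and were not tested.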

Additional observations from a re-analysis of the deposited data

Results flagged for a closer look

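For 5 members the change between the labels differed between all DCs and macrophages by a test of the difference itself (edgeR interaction, adjusted over 14094 genes, of which 7.9% were called). Values are the log2 fold change in DCs minus that in macrophages. They were -3.75 for Il12b (adjusted p = 0.000104), 1.44 for Cd83 (adjusted p = 0.000321), -1.25 for Relb (adjusted p = 0.000553), 1.09 for Cd40 (adjusted p = 0.00186) and -2.99 for Ccl17 (adjusted p = 0.00284). Cd40 and Cd83 were lower with the siFXR1-LNA label in macrophages and at -0.08 and 0.04 in the sum of all DCs. For Cd83 this sum joined subsets that moved apart, since it was higher in cDC2-like cells and lower, without passing, in mature DC-like cells. Relb was higher in macrophages and at -0.24 in all DCs. It too was higher in cDC2-like and lower in mature DC-like cells, and passed in neither. Il12b rested on 6 and 67 UMIs in the DCs of the siFXR1-LNA libraries and on 7, 4, 6 and 51 UMIs in macrophages, where siFXR1-LNA replicate 2 held most. Ccl17 was 0.37 (adjusted p = 0.765) with set-aside sub-clusters kept and lost the call without siCont replicate 1 (-2.01, adjusted p = 0.0684), and Cd40 without siFXR1-LNA replicate 1 (0.95, adjusted p = 0.0503).

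Between B cells and macrophages the change differed for Cd83 by 1.11 (adjusted p = 0.0167) and for Relb by -1.21 (adjusted p = 0.0256), where 5.09% of 14514 genes were called. Cd83 lost the call without siFXR1-LNA replicate 1 (adjusted p = 0.344) or replicate 2 (adjusted p = 0.138). Relb lost it without siCont replicate 2 (-0.76, adjusted p = 0.0578) or siFXR1-LNA replicate 1 (adjusted p = 0.475). Macrophages and B cells of the labels fell into different sub-clusters, as given with their values, and the part of this in the differences was not tested.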

How the results depend on the processing

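Of 635 changes of members under other settings, 519 kept their direction and side of the threshold, 42 came past it, 20 fell short of it and 54 changed sign. Part of the 519 was fixed in advance. Keeping mixed sub-clusters left the sums of each DC subset as they were, and keeping set-aside ones left those of each DC subset, all DCs and B cells. Such fits could only repeat the main result. None of the values that changed sign was past the threshold, and only Cd40 and Cd83 in macrophages were past it to begin with. In macrophage sub-cluster 2 alone Cd40 was 0.0815, Cd83 0.7545 and Ccr7 -0.402. In all DCs with at least 500 genes per cell, Fscn1 was 0.0122, Relb 0.3206, Ccl17 0.3639, Cd40 0.4533, Ccr7 0.6328 and Il4i1 0.7507. With later rounds at 0.1, Relb was 0.2867, Ccl17 0.3766, Cd40 0.4034, Ccr7 0.5926 and Il4i1 0.6911, and with members among the variable genes they were 0.286, 0.375, 0.4261, 0.5996 and 0.7068. Il4i1 was 0.005 with mixed sub-clusters kept, Il4i1 0.0146 and Ccr7 0.0181 with the top Scrublet scores removed, and Cd83 -0.0086 with no filter and -0.0197 with the replicate block, where Cd40 in mature DC-like cells was -0.0254 and -0.0166. In macrophages, Ccl17 was -0.3595 with later rounds at 0.1, -0.4514 with mixed and -0.479 with set-aside sub-clusters kept, and Ccr7 was -0.4139 with at least 500 genes, -1.4059 with mixed sub-clusters kept and -0.1486 with the top scores removed. Ccr7 was 0.5508 in T cell sub-cluster 3 alone. With set-aside sub-clusters kept, which hold cells led by cDC2 markers, the differences between DCs and macrophages were 0.3679 for Ccl17, 1.1812 for Ccl22 and 0.0592 for Fscn1.

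Leaving out each library in turn also changed signs, here with the lowest and highest value of each. In all DCs Ccr7 went from -0.33 to 0.25, Ccl17 from -0.45 to 0.10, Cd83 from -0.48 to 0.38 and Il4i1 from -0.47 to 0.27. In mature DC-like cells Ccr7 went from -0.70 to 0.13, Cd40 from -0.36 to 0.27 and Il4i1 from -0.59 to 0.0149. In cDC2-like cells Ccl17 went from -0.76 to 0.43 and Cd40 from -0.70 to 0.0235. In B cells Ccr7 went from -1.34 to 0.0548, Ccl17 from -6.57 to 0.0762 in the 2 fits that held it, Cd40 from -1.09 to 0.042 and Relb from -0.42 to 0.0743. Ccr7 in T cells went from -1.18 to 0.99, and Il4i1 in macrophages from -0.40 to 0.0205. The difference between DCs and macrophages went from -1.21 to 0.69 for Ccl22 and from -0.0449 to 0.28 for Il4i1, and that between B cells and macrophages from -0.39 to 2.04 for Ccl22. The cause of these changes of sign was not tested. In 3 other clusterings the cDC2 class had too few siFXR1-LNA cells for a value. All DCs there held cDC2-like cells of the siCont libraries (484 and 284 with at least 500 genes per cell) but only 0 to 10 per siFXR1-LNA library. The mix of subsets in these sums thus differed between the labels, and the part of this in their values was not tested.

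The numbers of genes called were 34 in B cells, 41 in T cells, 333 in all DCs, 37 in cDC1-like, 379 in cDC2-like and 130 in mature DC-like cells and 2216 in macrophages. DESeq2 gave 410, 304, 542 and 70 in the first 4. No filter on low counts gave 186, 888, 1412, 375, 1283, 497 and 3831. With at least 500 genes per cell B cells had 225 and mature DC-like cells 247, with later rounds at 0.1 they had 20 and 253, and with members among the variable genes T cells had 22 and mature DC-like cells 213. With mixed sub-clusters kept B cells had 20, with the top Scrublet scores removed they had 56 and cDC1-like cells 17, and without hemoglobin genes cDC1-like cells had 18. Leaving out 1 library gave 12 to 694 in B cells, 0 to 542 in T cells (0 without either siFXR1-LNA library), 0 to 1166 in all DCs (0 without siFXR1-LNA replicate 1), 12 to 166 in cDC1-like, 79 to 1035 in cDC2-like and 115 to 542 in mature DC-like cells and 520 to 1504 in macrophages.

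With the replicate number as a block, 924, 565, 1055, 390, 1361, 418 and 3429 genes were called in the same order. The deviations of same-numbered libraries correlated at 0.11 to 0.33 in every type, with only 2 pairs, and nothing says that a number marks a shared day or litter.

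The share of DCs among cells, siFXR1-LNA minus siCont, was -2.14 percentage points for all DCs, -0.57 for cDC1-like, -1.08 for cDC2-like, -0.49 for mature and 0.0011 for plasmacytoid DC-like cells. With at least 500 genes per cell it was -5.94, -1.67, -2.77, -1.43 and -0.0681. In that clustering 0 siFXR1-LNA cells were named cDC2, which enters the values of cDC2-like cells and of all DCs. Outside erythrocytes and unnamed clusters of the main clustering the share was -7.02, -1.71, -3.65, -1.61 and -0.0502.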
